A study of Mus musculus with 6 samples.

Results

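Chains of H3K27me3 peaks that spanned at least 8 kb were examined in mouse ovarian granulosa cells (GCs). H3K27me3, trimethylation of lysine 27 of histone H3, was profiled by CUT&Tag, in which an antibody directs a protein A-Tn5 transposase to the marked chromatin and the enzyme inserts sequencing adapters there. The rows of the 6 peak lists on autosomes were pooled, rows with 50% or more repeat-masked bases were dropped, and rows within 5 kb of each other were joined. Of 6728 joined regions, 76 spanned 8 kb or more, and these are called domains here. Peak positions chose the domains, so their spans and their coverage in the pooled lists are descriptions and carry no test.

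ICR female mice 3 weeks old were primed with the gonadotropin PMSG and then injected i.p. once with the alkylating drug cyclophosphamide (CTX) or with phosphate-buffered saline (PBS), and GCs were collected 6 h later. Each library held GCs pooled from 3 mice, with 3 PBS and 3 CTX libraries. The recovered depth was 1957, 1375 and 1595 reads per Mb in PBS replicates 1 to 3 and 1433, 1630 and 1118 in CTX replicates 1 to 3. Depth therefore differed between libraries of the same group by more than the group means did, and PBS replicate 2 with CTX replicate 1, and PBS replicate 3 with CTX replicate 2, were the pairs of nearly equal depth. The start sites of the 12 GC marker genes lay in 0 domains and in 0 other joined regions. The same held for 5 oocyte, 4 immune and 3 endothelial markers on autosomes. Of 6 theca and stroma markers, 2 (Pdgfra and Tcf21) lay in other regions. Of 20780 protein-coding genes, 67 had a start site in a domain and 1045 in another region, so these counts do not identify the cells.

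H3K27me3 is deposited by Polycomb repressive complex PRC2, whose catalytic subunit is EZH2 or EZH1. In differentiated cells the mark covers CpG-rich promoters of developmental regulators that belong to other lineages, and at homeobox genes it can extend over many kilobases. The mark is read by CBX proteins of PRC1, which compact chromatin and ubiquitinate histone H2A, and by the EED subunit of PRC2, through which the mark spreads to neighbouring nucleosomes.

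The following windows of 200 bases show the DNA under the highest summit, by fold enrichment, of the 4 domains with the most bases under pooled peaks. They were read from the GRCm38 sequence on the plus strand, and capitals mark CpG dinucleotides, which are dense in the promoters that Polycomb complexes bind.
Ptprn2, chr12:117152478-117152677, plus strand: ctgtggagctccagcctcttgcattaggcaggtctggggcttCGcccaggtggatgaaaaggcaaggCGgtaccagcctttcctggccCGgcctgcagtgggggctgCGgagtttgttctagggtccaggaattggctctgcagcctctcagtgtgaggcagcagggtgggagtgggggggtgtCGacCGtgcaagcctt
Fcgr3, chr1:171064503-171064702, plus strand: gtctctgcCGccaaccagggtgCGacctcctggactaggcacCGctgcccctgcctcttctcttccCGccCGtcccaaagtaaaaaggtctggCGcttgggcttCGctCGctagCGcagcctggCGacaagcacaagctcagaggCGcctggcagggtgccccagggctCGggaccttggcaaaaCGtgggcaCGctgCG
Gbx2, chr1:89940531-89940730, plus strand: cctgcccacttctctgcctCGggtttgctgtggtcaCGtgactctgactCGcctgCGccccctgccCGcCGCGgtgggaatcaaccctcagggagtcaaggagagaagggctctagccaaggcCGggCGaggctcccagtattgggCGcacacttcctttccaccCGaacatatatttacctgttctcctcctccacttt
Lbx1, chr19:45240942-45241141, plus strand: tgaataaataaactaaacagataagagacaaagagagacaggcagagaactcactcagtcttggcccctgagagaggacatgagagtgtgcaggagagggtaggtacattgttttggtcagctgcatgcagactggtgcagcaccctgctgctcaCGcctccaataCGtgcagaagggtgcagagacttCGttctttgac

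The 4 windows differed in CpG content. The Fcgr3 window held 15 CpGs and 66.5% GC, the Gbx2 window 11 CpGs and 60.5% GC, the Ptprn2 window 6 CpGs and 63% GC, and the Lbx1 window 3 CpGs and 49.5% GC. Over the 76 domains, the bases under pooled peaks had a median GC content of 55.9%, the gaps between them 50.2%, and the 10 kb on either side 46.7%. The ratio of observed to expected CpG was 0.464 under the peaks, 0.51 in the gaps and 0.278 in the flanks. The gaps were richer in CpG than the flanks in 69 of 76 domains, while the covered bases exceeded the gaps in 29. Under the peaks of the 6652 shorter regions the ratio was 0.258. The CpG-rich sequence of a domain thus included the bases between its called peaks.

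The domains were chains of short peaks and not continuous blocks. They spanned 8.12 to 23.6 kb, with a median of 10.1 kb, and 857 kb in all, on 18 chromosomes. Pooled peaks covered 10.6% to 46.9% of a domain, with a median of 21.8%, and 0 domains were covered over more than 50% of their span. A domain held 2 to 10 separate pooled stretches, the median being 5, and the widest was 2568 bp. The 305 gaps had a median of 2118 bp. The word "broad" therefore describes the spacing of the peaks, since the lists were called with narrow-peak settings. Of the 76 domains, 44 had a peak in all 6 libraries, 22 in 5, 7 in 4, 1 in 3 and 2 in 2 libraries. At the 8 kb limit, the domains of Six6 (8120 bp), the Eomes gene body (8135 bp) and Pou4f3 (8154 bp) lay just inside, and the regions of Nkx1-1 (7890 bp), Zic4 (7859 bp) and Myt1l (7806 bp) just outside.

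Genes of embryonic patterning and cell fate filled the domains. A protein-coding transcription start site (TSS) lay in 61 of 76 domains (80.3%), against 15.8% of the 6652 shorter regions. A TSS from the lists of developmental transcription factors lay in 49 domains (64.5%), against 92 shorter regions (1.38%). Longer regions can hold more start sites, and these shares were not corrected for length. In all, 52 of the 380 listed factors had a start site in a domain.

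Homeobox genes were the most frequent. Of the sine oculis and EYA homologues, which act together in placode, kidney and muscle formation, 4 of 10 were in domains, among them Six2, Six3 and Six6. Of 12 LIM-homeodomain genes, which specify neuron types, 4 were present (Isl1, Isl2, Lhx5 and Lhx8). The IRX group, patterning factors of heart and neural tissue, contributed Irx2 and Irx4 of 6 genes. The HOX genes, which set position along the body axis, contributed 4 of 39 (Hoxa3, Hoxa4, Hoxa13 and Hoxc8). A list of other homeobox and POU genes, which also holds the DM-domain genes Dmrt2 and Dmrta2, gave 18 of 87, among them Gbx2, which positions the midbrain-hindbrain boundary, and Otp, needed for hypothalamic neuroendocrine neurons.

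Factors of other classes were also present. T-box genes gave 3 of 15 (Tbx1, Tbx5 and Tbx18, with roles in pharyngeal, heart and urogenital mesenchyme), PAX genes 2 of 9 (Pax2 for kidney and Pax5 for B cells), FOX genes 3 of 41 and neural bHLH genes 4 of 42 (Neurod2, Olig2 and Olig3 among them). Of the SOX genes 0 of 18, and of the GATA genes 0 of 5, were in a domain, although 6 SOX genes lay in shorter regions. In the list of secreted ligands, 1 of 70 (Shh, a morphogen) had a start site in a domain and 28 in shorter regions. The list does not hold every ligand, as the growth factor gene Igf2 also has a start site in a domain. Of 130 ion channel genes, 1 (Kcnk4) was in a domain and 34 in shorter regions. The lists of neurotransmitter receptors, protocadherins, Polycomb subunits and ribosomal proteins had 0 each in domains. Over all protein-coding genes the share in a domain was 0.32%, so a count of 0 or 1 in such lists does not show depletion.

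In the PBS and CTX libraries, the domains were covered by fewer bases after CTX, but the groups overlapped. The bases under peaks in all domains came to 127, 64.6 and 106 kb in the PBS libraries (99.1 ± 31.6 kb, SD, n = 3) and 41.1, 74.1 and 24.3 kb in the CTX libraries (46.5 ± 25.4 kb, SD, n = 3). CTX replicate 2 lay above PBS replicate 2, the shallowest PBS library. In such bulk libraries, a change in which cells were collected and a change of the mark per cell cannot be told apart. The CTX mean was 46.9% of the PBS mean. At nearly equal depth, CTX replicate 1 had 63.6% of the coverage of PBS replicate 2, and CTX replicate 2 had 70% of that of PBS replicate 3. Libraries of the same group differed as much, since PBS replicate 2 had 51% of the coverage of PBS replicate 1 and CTX replicate 3 had 32.7% of that of CTX replicate 2. Within each group coverage ranked as depth did. The difference between the group means was -52.6 kb. Without PBS replicate 1, the deepest library, the domains were built again, and the difference was -26.2 kb over 46 domains. The sums thus cover different sets of domains.

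**Figure D1:**
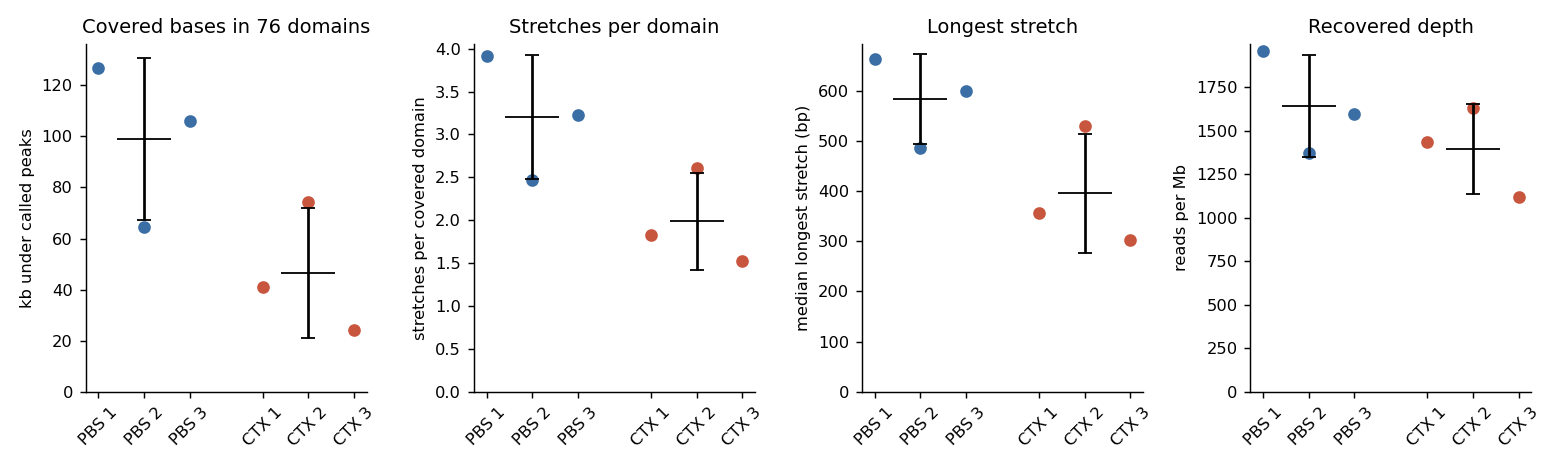
Bases under called peaks in the 76 domains (kb), separate stretches per covered domain, median longest stretch per domain (bp) and recovered depth (reads per Mb), for each of 3 PBS libraries (blue) and 3 CTX libraries (red), with the mean and SD of each group in black. CTX replicate 2 lies above PBS replicate 2 in all 4 plots, and the depth panel shows the same order.

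The mean coverage of a domain was lower after CTX in 76 of 76 domains. The share over all joined regions is not given for this count. PBS libraries gave most of the rows that chose the domains, with 435, 220 and 359 against 149, 254 and 88 with CTX. The direction is therefore in part a product of that choice. In 26 domains every CTX library was below every PBS library, and in 0 domains the reverse held. The smallest p of the two-sided exact permutation test with 3 against 3 libraries is 0.1, so no single domain could pass a threshold of 0.05. Among joined regions covered in at least 3 libraries, 27.8% were lower without overlap and 0.267% higher, and the 26 domains were 35.1% of the 74 domains in that set. With the domains built again, the count was 50 of 68 without PBS replicate 2 and 49 of 65 without CTX replicate 2. The share over all regions was not computed for these settings. Non-overlap is also easier to reach with fewer libraries in a group. When limma was fitted over 2243 regions, 0 regions (0%) had an adjusted p under 0.05 in either direction, and the lowest adjusted p of a domain was 0.152. At an unadjusted p under 0.05, 510 regions were lower and 3 higher, with 32 of 74 domains among the lower. The median log2 difference was -0.99 over the 74 domains and -0.67 over all 2243 regions. With the recovered depth as a covariate in limma, these medians were -0.52 and -0.35, 300 regions were lower and 8 higher at an unadjusted p under 0.05, with 16 domains among the lower, and again 0 had an adjusted p under 0.05. Peaks of the same libraries chose the regions, and 119 of the 2243 were covered in PBS libraries only (0 of them domains) and 3 in CTX libraries only, so the counts and medians are descriptions.

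The domains with the most bases under pooled peaks differed in how far their coverage was lower after CTX. The one with the most, within the body of Ptprn2, which encodes a protein of secretory granules (chr12:117151000-117159925), had 3279, 2275 and 3048 bp with PBS against 1198, 2377 and 936 bp with CTX. CTX replicate 2 overlapped with the PBS libraries there. The Gbx2 domain (chr1:89921766-89940737, 19 kb) had 2297, 1549 and 1442 bp against 433, 1982 and 666 bp. The Lbx1 domain, around a factor for migrating muscle precursors (chr19:45222453-45241160), had 3390, 1587 and 1939 bp against 778, 1739 and 411 bp. In both, CTX replicate 2 was above PBS replicate 2. The Otp domain (chr13:94870553-94883600) had 2825, 1505 and 2341 bp against 820, 1460 and 329 bp, with no overlap. The domain of Igf2, an imprinted growth factor gene (chr7:142654345-142666497), had 1854, 1757 and 1967 bp against 1012, 1574 and 574 bp, also with no overlap and with the PBS libraries close together. The domain of Prdm16, a regulator of brown fat and haematopoietic stem cells (chr4:154632910-154643042), had 2287, 1172 and 1814 bp against 976, 1035 and 547 bp. The domain of Hmx3 and Hmx2, factors for the inner ear (chr7:131541583-131554857), had 2900, 1556 and 2255 bp against 851, 1772 and 408 bp. The Ebf2 domain (chr14:67228239-67239093) had 2608, 1278 and 2388 bp against 375, 1334 and 951 bp, and the Sall3 domain on chromosome 18 had 2632, 528 and 845 bp against 526, 1031 and 0 bp. Of these last 4 domains, only that of Prdm16 had no overlap between the groups.

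Of the 12 domains with the most bases, 3 kept over 70% of the PBS mean. The domain in the gene body of Uncx, a homeobox gene for the axial skeleton (chr5:139545760-139560221), kept 85.7%, with 2858, 2028 and 2656 bp against 2096, 3010 and 1354 bp. The domain at the non-coding gene Platr30 (chr3:96337481-96345642) kept 85.4%, with 2923, 1454 and 2423 bp against 2100, 2776 and 932 bp. It held 1 tRNA gene. The Fcgr3 domain (chr1:171063839-171078302), which starts at an Fc receptor gene and held 10 tRNA genes, kept 72.6%, with 3232, 3328 and 3477 bp against 2280, 3275 and 1733 bp. All 3 domains overlapped between groups. Copies of tRNA genes are near-identical, so read placement there is less certain, and without both tRNA domains the difference in covered bases over all domains was -51.4 kb.

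Among the domains without overlap, the 5 with the largest loss of bases lay at neural patterning genes. The Olig2 domain (chr16:91218987-91233306), at a factor of oligodendrocyte and motor neuron precursors, had 2173, 734 and 1888 bp with PBS against 607, 0 and 0 bp with CTX. The Otp domain is given above. The Lhx5 domain (chr5:120427051-120439873), at a forebrain gene, had 1734, 605 and 2210 bp against 229, 545 and 0 bp. The Evx1 domain (chr6:52307109-52318991), which marks a class of spinal interneurons and adjoins the HOXA cluster, had 1655, 1186 and 1478 bp against 218, 628 and 277 bp. The Dmrta2 domain (chr4:109974287-109987146), at a gene for cortical progenitors, had 1645, 892 and 1902 bp against 664, 599 and 0 bp. CTX replicate 3, the shallowest library, had 0 bp in 3 of these 5 domains. No domain was higher without overlap.

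HOX genes lay in 3 domains. The Hoxa3 and Hoxa4 domain (chr6:52180644-52194011) had 1986, 809 and 1522 bp against 247, 893 and 0 bp, with CTX replicate 2 above PBS replicate 2. The Hoxa13 domain (chr6:52259256-52269198), at a gene for the limb tips and genital tubercle, had 1028, 386 and 724 bp against 0, 357 and 0 bp, with no overlap. The Hoxc8 domain (chr15:102986000-102997123) had peaks only in PBS replicate 3 (918 bp) and CTX replicate 3 (574 bp) and shows no direction. It is 1 of the 2 domains covered in 2 libraries. The other lay in the body of Pax3, a neural crest gene, with a mean of 494 bp with PBS against 0 bp with CTX, and it was the only domain with no CTX coverage.

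Several of the longest domains were not among the fullest. The Pax2 domain (20.6 kb, chr19:44742299-44762853) had 1534, 0 and 1390 bp covered with PBS against 200, 593 and 0 bp with CTX. The Isl1 domain (16.9 kb, chr13:116293340-116310280) had 1614, 1061 and 1480 bp against 797, 758 and 0 bp and did not overlap. The Tfap2a domain (17.4 kb), at a neural crest and skin gene, had 1608, 721 and 1803 bp against 411, 793 and 0 bp. The domain at the non-coding gene AI849053, which holds Mir9-1 (16.7 kb), had 1434, 200 and 1385 bp against 200, 856 and 0 bp. Of these 4, only Isl1 had no overlap between groups.

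Coverage of a library within a domain can be lower in 2 ways, by retreat of its outermost peaks or by loss of peaks between them. Extent was defined as the distance from the first to the last covered base of a library in a domain, and fill as the covered share of that extent, so that the log2 changes of extent and fill add up to that of coverage. In the 44 domains covered in all 6 libraries, the median extent was 8.85, 6.95 and 8.31 kb in the PBS libraries and 0.891, 8.05 and 0.595 kb in the CTX libraries. CTX replicate 2 thus kept the extent of the PBS libraries, whereas CTX replicates 1 and 3 had 1 short stretch left in many domains. The median fill was 20%, 17.5% and 18.3% against 81.5%, 15.2% and 100%. A domain with 1 remaining stretch has a fill of 100% by definition, and there were 1, 9 and 5 such domains in the PBS libraries and 20, 8 and 24 in the CTX libraries.

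The mean log2 extent was lower after CTX in 43 of 44 domains and the mean log2 fill in 11. Shares over all joined regions are not given for these 2 counts. The median changes were -1.87 for extent, +0.72 for fill and -1.07 for coverage. In 33 domains extent was lower and fill higher, and in 10 both were lower. Extent was lower without overlap in 11 domains, against 24.6% of the 957 joined regions covered in all 6 libraries, and fill was higher without overlap in 5, against 4.6%. A region with 1 stretch in every library cannot differ in fill. Leaving out a library also changed the set of domains. Without PBS replicate 1, over 25 domains, the median change was -1.22 for extent and 0.26 for fill. Without CTX replicate 2, over 40 domains, it was -2.88 for extent and 1.31 for fill. With the 4 libraries of nearly equal depth, over 61 domains, the changes were -0.96 for extent and 0.21 for fill. The outermost peak of any library sets the end of a domain, and the extent of PBS replicate 1 had a median of 97.1% of the span, so a lower extent in other libraries is in part a product of how the domains were chosen.

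**Figure D2:**
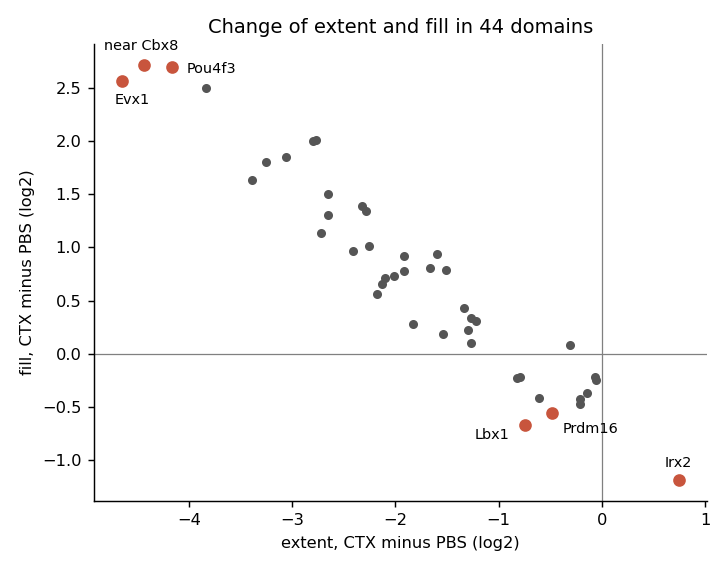
Change of fill against change of extent (log2, CTX mean minus PBS mean) for the 44 domains covered in all 6 libraries, 1 point per domain, with the 3 largest falls in extent (Evx1, near Cbx8, Pou4f3) and in fill (Lbx1, Prdm16, Irx2) in red. Points fall along a diagonal, as a domain with fewer stretches has both a shorter extent and a higher fill.

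The 3 largest differences in extent were in domains reduced to 1 or 2 peaks. At Evx1, extent was 8418, 7013 and 10162 bp with PBS against 218, 628 and 277 bp with CTX. In the domain next to Cbx8, the gene of a PRC1 subunit (chr11:119044694-119055210), it was 6861, 10517 and 6457 bp against 766, 285 and 209 bp. At Pou4f3, a gene of inner ear hair cells on chromosome 18, it was 5082, 7179 and 4895 bp against 200, 771 and 200 bp. All 3 lacked overlap, and CTX replicate 2 was also short there. The 3 largest falls in fill were smaller in range. Log2 fill differed by -1.19 at Irx2, -0.67 at Lbx1 and -0.56 at Prdm16. At Irx2 extent was 7603, 340 and 317 bp against 322, 2665 and 4514 bp, so its groups overlapped, and its log2 extent was higher after CTX by 0.75.

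Mean coverage was lower both at the edges and inside the domains, with overlap between the groups in each. Each domain was divided into an outer 25% on each side and the inner part. The outer zones held 68 ± 23.3 kb in the PBS libraries and 33.2 ± 17 kb in the CTX libraries (SD, n = 3), and the inner part 31.1 ± 8.45 kb and 13.3 ± 8.36 kb. The CTX mean was 48.8% of the PBS mean in the outer zones and 42.7% in the inner part. CTX replicate 2 had 51.7 kb in the outer zones and 22.4 kb in the inner part, above the 42.3 and 22.3 kb of PBS replicate 2. At nearly equal depth, CTX replicate 1 had 70.1% of PBS replicate 2 in the outer zones and 51.2% in the inner part, while CTX replicate 2 had 69.8% and 70.6% of PBS replicate 3. Within groups, PBS replicate 2 had 48.3% and 57% of PBS replicate 1, and CTX replicate 3 had 35.3% and 26.8% of CTX replicate 2. The log2 ratio of the outer to the inner change was 0.19, close to the SD of 0.18 between libraries, and it was -0.074 when peaks were joined within 10 kb and -0.17 with peaks of a q-value of at most 1e-05, where 10 domains were found. Edges are set by the outermost peak of any library, so coverage of the end bins is high by construction.

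**Figure D3:**
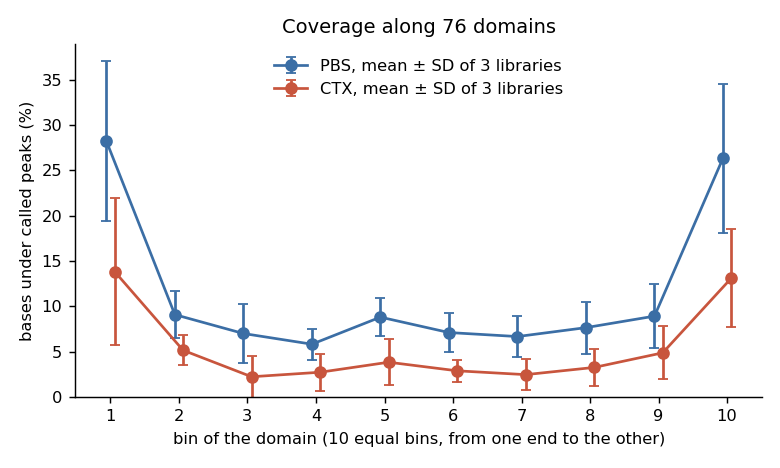
Share of bases under called peaks (%) in each of 10 equal bins of the 76 domains, from one end to the other, as the mean ± SD of the 3 PBS libraries (blue) and the 3 CTX libraries (red). The end bins had 28.2% and 26.4% in PBS and 13.8% and 13.1% in CTX, and the CTX mean was below the PBS mean in every bin, at 31.7% to 56.6% of it.

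Whole peaks were absent more often than they were split, from PBS to CTX libraries and also between PBS libraries. PBS stretches had mean lengths of 431, 385 and 432 bp, and called peaks were as short as 200 bp. Many stretches thus had little room for 2 separate peaks, so this contrast does not show how coverage was lost. The 152 stretches of pooled peaks at the ends of a domain had a peak in 59.6% ± 17.8 of cases in the PBS libraries and in 34.2% ± 12.2 in the CTX libraries (SD, n = 3). The 229 stretches inside had a peak in 57.6% ± 14.8 and 28.2% ± 14.4 of cases. The CTX mean was 57.4% of the PBS mean at the ends and 49% inside. At nearly equal depth, CTX replicate 1 had 85% as many end stretches and 57.1% as many inner stretches with a peak as PBS replicate 2. For CTX replicate 2 against PBS replicate 3 these were 70.3% and 76.5%. Within groups, PBS replicate 2 had 54.1% and 59% of PBS replicate 1, and CTX replicate 3 had 47.9% and 36.6% of CTX replicate 2. Of the 152 end stretches 4, and of the 229 inner stretches 14, were present in all PBS libraries and in no CTX library, and 0 showed the reverse. The share over stretches of other regions was not computed. Between 2 PBS libraries a median of 28.3% of the stretches of one were absent from the other (18.5% to 55.4% over 6 ordered pairs), and from PBS to CTX libraries it was 60.8% (35.1% to 77.2% over 9 pairs). Of the PBS stretches that a CTX library still overlapped, a median of 7.37% were split into 2 or more (2.65% to 13%), against 4.79% (0.73% to 6.11%) between PBS libraries. These ranges overlap. Where a PBS stretch met exactly 1 CTX stretch, the CTX stretches had a median of 73.3% of the width (54.6% to 120% over the pairs), against 113.9% (85% to 154%) from PBS to PBS, again with overlap.

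Stretches were on average fewer and shorter in the CTX libraries, with overlap between the groups. There were 3.92, 2.47 and 3.22 stretches per covered domain in the PBS libraries and 1.82, 2.61 and 1.52 in the CTX libraries. Mean stretch length was 431, 385 and 432 bp against 331, 405 and 307 bp. The median longest stretch was 664, 486 and 600 bp against 356, 530 and 302 bp. In each of these measures CTX replicate 2 exceeded PBS replicate 2. In the 44 domains covered in all libraries, the longest stretch was on average shorter in 42 and the stretches fewer in 40. Shares over all joined regions are not given for these counts either.

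The read density around the peaks separated the groups where coverage did not. The fold enrichment and p-value of each summit give back the number of overlapping reads at the summit and the local background, which was the read density over the 10 kb around it. It was divided by the genome-wide mean of the library. Use of a control library is not given in the sources used here, and with one the density would be that of the control. The density comes from the reads that gave the peaks and is known only at called summits, of which the domains held 435, 220 and 359 in the PBS libraries and 149, 254 and 88 in the CTX libraries. Its highest value per domain had a median over the 44 domains of 76.8, 72.6 and 79.4 times the genome mean in the PBS libraries and of 51.1, 54.5 and 46.6 times in the CTX libraries. The medians of the groups did not overlap, and CTX replicate 2, which had the most coverage of the CTX libraries, was on the side of the other CTX libraries. In reads, these medians were 1503, 999 and 1266 per 10 kb in PBS and 733, 888 and 522 in CTX.

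**Figure D4:**
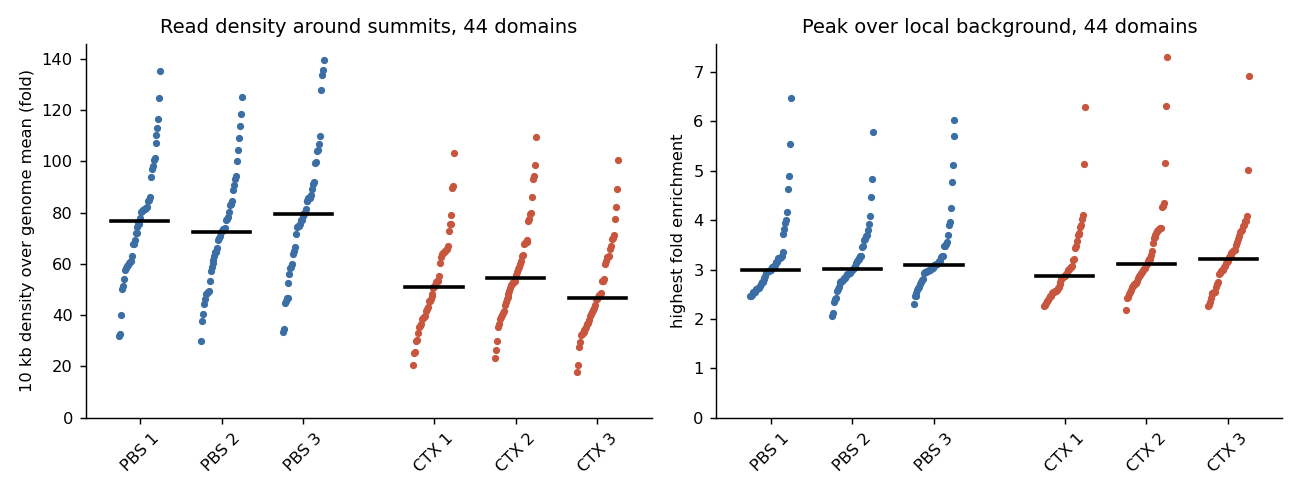
Left, read density in the 10 kb around the summits over the genome mean (fold, highest per domain), and right, the highest fold enrichment of a peak over that local density, for the 44 domains covered in all libraries, sorted within each library, with the median as a black line. The density medians were 72.6 to 79.4 in PBS (blue) and 46.6 to 54.5 in CTX (red), while the fold enrichment medians were 2.87 to 3.21 over all 6 libraries.

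The density was lower after CTX in 44 of 44 domains, with a median log2 difference of -0.49, and it did not overlap between groups in 41. Over the 952 joined regions covered in all 6 libraries, the density was lower in 96%, and in 81.8% without overlap. The median log2 difference there was -0.34. Of the 71 regions of 4 to 8 kb, 100% were lower, so a lower density was not particular to the domains. With limma over these regions 43 of 44 domains had an adjusted p under 0.05, and so did 81.5% of all regions, while 0 domains and 1.26% of regions were higher. The peaks that chose the domains came from the same reads, so these counts are a description. The 1 domain that missed it was Fcgr3, with the 10 tRNA genes (log2 difference -0.15, SE 0.09, adjusted p = 0.0996). When each library was centred on its median over all regions, 9 of 44 domains remained lower at an adjusted p under 0.05 in limma, against 4.41% of all regions, and 0 were higher, against 3.36%. Using the median over the summits of a domain in place of the highest gave -0.42, and comparing the same stretches in all libraries gave -0.43 over 35 domains.

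The 9 domains lower than the common shift included those of Pou4f3, Igf2, Ebf2, Kcnk4, Dlx5, Otp and Six2 and the domain next to Cbx8. Among the domains called, the centred log2 differences were largest at Pou4f3 (-0.64, SE 0.08, limma adjusted p = 7.05e-05) and Igf2 (-0.53, SE 0.06, limma adjusted p = 7.05e-05). Otx1 and Gm30731 had larger centred differences that did not pass (-0.76, SE 0.32, and -0.71, SE 0.31, limma adjusted p = 0.284 and 0.297). Before centring, the Pou4f3 domain had 67.8, 66.3 and 74.4 times the genome mean in PBS and 32.9, 41.7 and 32.4 times in CTX. The Igf2 domain had 80.2, 73.8 and 81.5 times against 42.3, 45.2 and 42.1 times. At Otp the density was 61, 64.5 and 64 times against 36.5, 47.1 and 39.6 times, and at Ebf2 81.3, 78.3 and 84.7 times against 43.3, 58 and 48.7 times. None of these 4 domains overlapped between the groups. The Ptprn2 domain, with the most bases under pooled peaks, had 117, 114 and 136 times against 90.4, 98.5 and 89.2 times. At Fcgr3 the density was lower at the outset, with 40, 37.7 and 44.7 times in PBS and 39.1, 36.6 and 34.1 times in CTX, and the groups overlapped.

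The number of reads at the summits was lower as well, whereas the fold enrichment over the local density was not. The highest summit per domain, scaled to 1000 reads per Mb, had medians of 40.1, 37.8 and 45.5 reads in PBS and 30.7, 33.4 and 30.4 in CTX. The median log2 difference was -0.4, and 28 of 44 domains did not overlap, against 39.9% of all 952 regions. The median over the summits of a domain gave -0.26 and 14 domains. The highest fold enrichment over the local density had medians of 2.99, 3 and 3.09 in PBS and 2.87, 3.11 and 3.21 in CTX, with a median log2 difference of 0.03. Of the 44 domains, 2 were lower without overlap, against 4.81% of 957 regions, and 3 were higher, against 4.6%. Over all summits called in domains, the median fold enrichment was 2.27, 2.47 and 2.35 in PBS and 2.59, 2.52 and 2.95 in CTX, higher without overlap. The CTX libraries had a higher median at summits elsewhere too, with 3.76, 3.56 and 3.96 against 3.24, 3.46 and 3.3 in PBS. The sets of summits called differ between the groups.

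Domains differed from shorter regions in the same measure in both groups. Their summits lay in a density of 64.5 to 70.4 times the genome mean in PBS libraries and 44.9 to 51.6 times in CTX libraries, against 22.8 to 26.7 and 16.8 to 19.5 times for summits elsewhere. Their fold enrichment over that density was lower in each library, by the values above. These levels follow from the choice of regions with many peaks close together. The change after CTX varied with span. The median log2 difference in density was +0.41 for 20 regions under 0.5 kb, -0.28 for regions of 0.5 to 1 kb, -0.32 for 1 to 2 kb, -0.34 for 2 to 4 kb, -0.46 for 4 to 8 kb and -0.49 for the domains. Coverage did not follow the same order, as the CTX mean was 93.3%, 48.3%, 54.3%, 57.5%, 47.8% and 46.9% of the PBS mean in these classes. The 15.8% of shorter regions with a start site and the domains differ in sequence and genes as well as in span, and these were not separated.

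**Figure D5:**
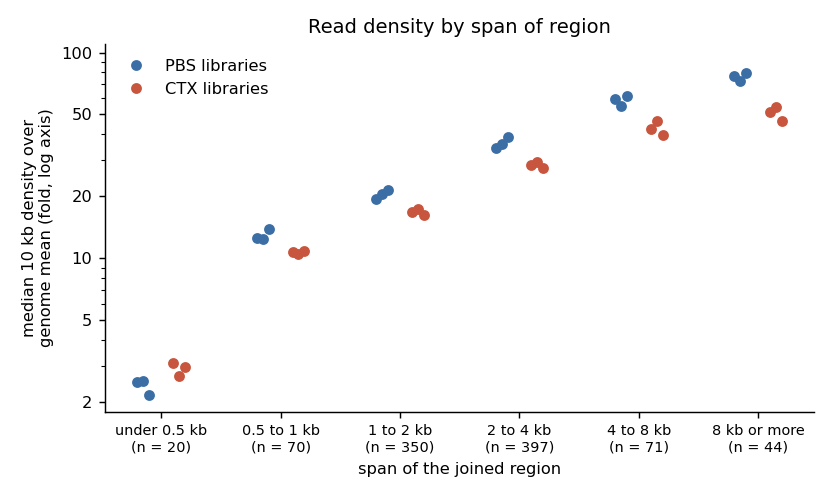
Median read density in the 10 kb around the summits over the genome mean (log axis) for joined regions covered in all 6 libraries, by span of the region, with 1 point per library (PBS blue, CTX red). All 3 CTX libraries lie below all 3 PBS libraries from 0.5 kb upward, and above them under 0.5 kb.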

How the data were processed

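H3K27me3 CUT&Tag of GCs was analysed in 3 PBS and 3 CTX libraries. The authors aligned reads to mm10 (GRCm38) with BWA, kept uniquely mapped (MAPQ of at least 13) and de-duplicated reads, and called peaks per library with MACS2 2.1.0 at a q-value of 0.05. The deposited lists hold for each summit an interval, a score, a fold enrichment (ratio of pileup to local background) and the −log10 p-value and q-value, and no read totals. Depth was recovered, not measured: the pileup and background were solved from fold enrichment and p-value at 99.7% to 99.9% of summits, all domain backgrounds were whole multiples of 0.02 (1 read of 200 bp over 10 kb), and the most frequent background gave the depth.

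Of 37177 rows, 36224 lay on autosomes and 30282 were kept after the repeat filter, and 1505 lay in domains. The recovery and the interval measures were tested on simulated data. limma 3.58.1 (trend and robust, log2(covered bp + 200), regions covered in at least 3 libraries, Benjamini-Hochberg adjustment) was run in R 4.3.3, and density was fitted on log2 values. Python 3.11.15 with pysam 0.24.0 was used otherwise. Genes are from the GENCODE annotation of GRCm38. Libraries are labelled replicates, each from pooled mice. Named domains are the 12 with the most bases under pooled peaks, the 5 longest of the others, those over HOX genes, the 5 lower and 5 higher without overlap by difference, the 3 largest falls in extent and in fill, and the 3 on each side of the 8 kb limit, and those named for centred density were chosen after their values were seen. Some domains that meet this rule are not reported here. The domains and gene lists were chosen with earlier results of these data known. Alternative joins, spans, thresholds, depths and left-out libraries were tried.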

Additional observations from a re-analysis of the deposited data

How the results depend on the processing

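Of 246 values under alternative settings, 211 kept their direction and stayed within the spread between libraries or within 1.5 times a count, 33 moved further and 2 reversed. The 211 include counts that stayed at 0 and differences that a replicate block cannot change. The spread was also wide, with an SD of 1.06 for a fill change of 0.72 and of 1.44 for an extent change of -1.87. The tally is therefore not a measure of robustness. Joining within 2 kb left 0 domains, so no other value could be given there. Joining within 10 kb gave 355 domains, a difference of -207 kb in covered bases, 90 domains lower without overlap and a log2 ratio of outer to inner change of -0.074. A minimum span of 5 kb gave 191 domains, -107 kb and 50 domains, and one of 12 kb gave 24 domains, -20.4 kb, 7 domains and 0.42. Peaks with a q-value of at most 1e-05 gave 10 domains, -7.22 kb, 4 domains and -0.17, and equal numbers of rows gave 20 domains, -9.09 kb, 5 domains and -0.53 stretches per domain. Sums over fewer domains are smaller by construction, while the cause of the smaller change per domain with equal numbers of rows was not tested. The median log2 change of fill, 0.72, was 0.19 with equal numbers of rows, 0.25 at a span of 12 kb, 0.31 when joined within 10 kb and 0.34 without the repeat filter, and that of extent, -1.87, was -1.1 with equal numbers of rows. When each replicate was left out, the domains were built again from the remaining libraries. This gave 46 domains (without PBS replicate 1) to 73, with 21 to 50 of the rebuilt domains lower without overlap. Over these changing sets, the differences were -26.2 to -64.3 kb in covered bases, -1.22 to -2.88 for extent and 0.26 to 1.31 for fill. Without a filter on regions limma called 83 regions, 12 of them domains, lower. Unscaled, the summit reads differed by -0.64 in log2 with 14 domains without overlap, and the density by -0.73 with 27. The median over summits gave -0.26 and 14 for the summit reads. Near-equal depth gave -0.39 for the density, and centring left 42 regions and 9 domains called.

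Same-numbered libraries did not deviate together in coverage (correlations of -0.08, -0.29 and -0.05 over 76 domains). The labels give only replicate numbers, so whether same-numbered libraries were prepared together is not known. With the replicate number as a block, the difference in covered bases stays at -52.6 kb by arithmetic, since the design is balanced. All 3 pairs were lower in 28 domains, and limma called 0 regions on coverage and 733 lower on density. The outer to inner ratio was 0.29.

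Precision was limited by 3 libraries per group and by a depth that was recovered from the lists. No spike-in is described, so a change common to all regions cannot be told from a change in the background reads. Peaks at the threshold appear or vanish with depth, and the density rests on domains with a peak in every library.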

Other observations

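Several domains outside the rule for named domains are given here because of their genes, chosen after their values were seen. The Grb10 domain lay at an imprinted gene for a growth factor receptor adaptor, like that of Igf2. It had 1087, 616 and 403 bp covered with PBS against 401, 388 and 331 bp with CTX, and a density of 32.7, 40.4 and 33.6 times the genome mean against 25.7, 26.6 and 27.6 times. Neither measure overlapped, although the nearest coverage values were close to each other. The Runx3 domain, at a factor of T cells and sensory neurons, had 975, 1253 and 1118 bp against 468, 808 and 528 bp and a density of 98.3, 93.3 and 104 times against 72.8, 77.5 and 66.8 times.

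Other domains overlapped in coverage but not in density. Six3 had 1342, 1144 and 2005 bp against 861, 1360 and 588 bp, with overlap, and a density of 135, 125 and 140 times against 103, 109 and 101 times, without overlap. Shh had 631, 675 and 1370 bp against 202, 1229 and 587 bp, with overlap, and a density of 113, 118 and 128 times against 64.9, 93.1 and 82.4 times, without overlap. In the Tbx18 domain neither measure overlapped, with 1041, 1046 and 1229 bp against 497, 822 and 301 bp and a density of 53.9, 48.4 and 46.5 times against 35.5, 38.4 and 36.4 times.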
